A study of Mus musculus with 14 samples.

Results

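A set of 10 genes downstream of, or modifying, the Notch receptors were followed through RNA of 14 primary small cell lung cancers of the mouse. They were taken by name from the 23284 genes counted in each library, and all 10 were found and passed the filter on low counts. They comprise the HES and HEY repressors Hes1, Hes5, Hey1, Hey2 and Heyl, the induced feedback inhibitor Nrarp, the DNA-binding partner of the receptor Rbpj, the glycosyltransferase Lfng, the ubiquitin ligase Dtx1 and the neuronal-gene repressor Rest. This cancer is an aggressive lung carcinoma of neuroendocrine character, and the tumours came from genetically engineered mice. All 14 tumours carried the Rb1/Trp53 genotype, a loss of both tumour suppressor genes: 7 carried it alone (called RP below) and 7 were labelled Rb1/Trp53/Crebbp (called RPC), with the histone acetyltransferase and coactivator gene Crebbp deleted as well. No untreated or normal lung sample was used. None of the age and strain of the mice, the Cre driver, the deleted exons or the number of tumours per mouse is given in the sources used here, so the p-values cover only the variation among these 14 samples.

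Notch receptors are cleaved when a neighbouring cell presents a Delta or Jagged ligand, and the freed intracellular part enters the nucleus and joins RBPJ and Mastermind proteins at target genes, where histone acetyltransferases are recruited. Hes and Hey genes are the classic targets. Their products are basic helix-loop-helix repressors that hold down proneural genes. In this tumour type Notch activity is known to mark a non-neuroendocrine state in which REST, a zinc finger repressor of neuronal genes, is also expressed. Hey2 and Heyl are in addition well known from blood vessels, Heyl mainly from the smooth muscle and pericytes of the vessel wall.

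RefSeq promoter windows of GRCm38.p6, from 250 bases before to 50 bases after a gene's start, were found for 6 of the 10 genes. They were searched on both strands for GTGGGAA, a short form of the letters RBPJ binds, for the shorter TGGGAA that it contains, and for CACGTG, an E-box of the kind HES and HEY proteins bind. GTGGGAA was in the windows of 3 genes, Lfng, Hes5 and Hey2, and in 6.38% of all 32851 windows of the same length. TGGGAA was in those of 4 genes (Rbpj as well) and in 25.6% of all windows. CACGTG was in those of 2 genes, Nrarp and Lfng, and in 7.15% of all windows. The windows of these 4 promoters follow, 5′ to 3′ along the gene's own strand, because 3 of them hold the longer RBPJ letters and 2, Lfng and Nrarp, belong to the genes nearest to the threshold of the test below; the capitals mark GTGGGAA or its reverse complement TTCCCAC.
Lfng: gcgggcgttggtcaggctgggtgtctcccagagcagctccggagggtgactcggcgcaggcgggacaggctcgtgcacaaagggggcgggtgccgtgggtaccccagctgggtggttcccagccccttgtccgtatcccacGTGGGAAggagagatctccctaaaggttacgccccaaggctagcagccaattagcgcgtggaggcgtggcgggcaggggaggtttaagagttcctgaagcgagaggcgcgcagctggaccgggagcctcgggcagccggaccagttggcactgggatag
Nrarp: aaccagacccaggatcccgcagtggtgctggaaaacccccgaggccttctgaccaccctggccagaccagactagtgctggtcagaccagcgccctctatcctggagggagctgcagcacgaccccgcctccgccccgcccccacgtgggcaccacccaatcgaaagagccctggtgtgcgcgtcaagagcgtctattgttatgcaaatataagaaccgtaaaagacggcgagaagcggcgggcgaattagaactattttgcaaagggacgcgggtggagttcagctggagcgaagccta
Hes5: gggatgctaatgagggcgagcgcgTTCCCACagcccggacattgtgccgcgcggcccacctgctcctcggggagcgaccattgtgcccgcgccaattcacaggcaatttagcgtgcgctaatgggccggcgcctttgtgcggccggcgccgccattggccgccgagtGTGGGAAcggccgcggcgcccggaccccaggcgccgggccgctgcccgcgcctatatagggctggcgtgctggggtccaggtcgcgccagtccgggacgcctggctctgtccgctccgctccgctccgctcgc
Hey2: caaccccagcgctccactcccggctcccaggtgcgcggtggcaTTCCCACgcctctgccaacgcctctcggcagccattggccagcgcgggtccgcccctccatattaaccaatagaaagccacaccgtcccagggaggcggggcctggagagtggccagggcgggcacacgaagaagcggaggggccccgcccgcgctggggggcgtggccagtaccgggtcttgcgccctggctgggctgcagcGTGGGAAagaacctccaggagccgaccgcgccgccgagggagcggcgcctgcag
The Lfng window (chr5:140607091-140607390, plus strand) has its GTGGGAA starting 109 bases before the start, and its CACGTG, starting 112 bases before, overlaps it. In the Nrarp window (chr2:25180508-25180807, plus strand) CACGTG starts 108 bases before the start, and no GTGGGAA is present in these letters. The Hes5 window (chr4:154960673-154960972, plus strand) holds the pair of matches in opposite directions at 226 and 83 bases before the start. The Hey2 window (chr10:30842734-30843033, minus strand) holds them at 207 and 4 bases before it. A match describes the letters and shows no binding.

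Gene counts per library came to between 10965714 and 23678648 in RP and between 10060969 and 24052799 in RPC. Values below are CPM, gene counts scaled to the library size after TMM normalization. RPC tumours 3, 5 and 6 stood apart: Ctss, a cathepsin of macrophages, was at 0.105, 0 and 0.0894 CPM in them and at 63.1 CPM or more in the other 11 libraries. Markers of endothelial, mural, fibroblast and macrophage cells were low in these 3 as well. The fold changes of the 10 genes and the tests of the called pathway genes are therefore given with and without them. Several other pathway genes are given over all 14 libraries only. Crebbp counts did not separate the genotypes, at 76.7 ± 13.9 CPM (SD, n = 7) in RP and 64.8 ± 4.25 CPM (SD, n = 7) in RPC, with an adjusted p of 0.265 in edgeR's quasi-likelihood test, and a count over the whole gene cannot show which exons were lost. The neuroendocrine markers Chga and Syp were present in every library, at 214.9 to 1022 CPM and 116 to 275 CPM over the 14.

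Of the 10 Notch genes, 7 had a lower fitted level in RPC than in RP and 3 a higher one, but no gene passed the test across all genes. The median log2 fold change over the 10, RPC minus RP, was -0.80, beside 0.002 over the 14804 genes tested. edgeR's quasi-likelihood test with Benjamini-Hochberg adjustment over all of these called 0 of the 10 at an adjusted p under 0.05, where it called 2.21% of all genes. At an unadjusted p under 0.05 there were 5 of 10 (Hes1, Hey2, Lfng and Nrarp lower, Rest higher), where the share of all genes was 21.3%, made up of 11.1% lower and 10.3% higher. A negative log2 fold change was found for 49.8% of all genes. DESeq2, which called 9.62% of all genes, called Hes1, Lfng and Nrarp, and limma-voom, which called 3.40%, called Lfng and Nrarp, all as lower in RPC. Without RPC tumours 3, 5 and 6, edgeR called 0 of 10 (0.0716% of all genes), with 5 of 10 at an unadjusted p under 0.05 (11.9% of all genes), 8 of 10 with a negative log2 fold change (51% of all genes) and a median log2 fold change of -0.48.

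**Figure D1:**
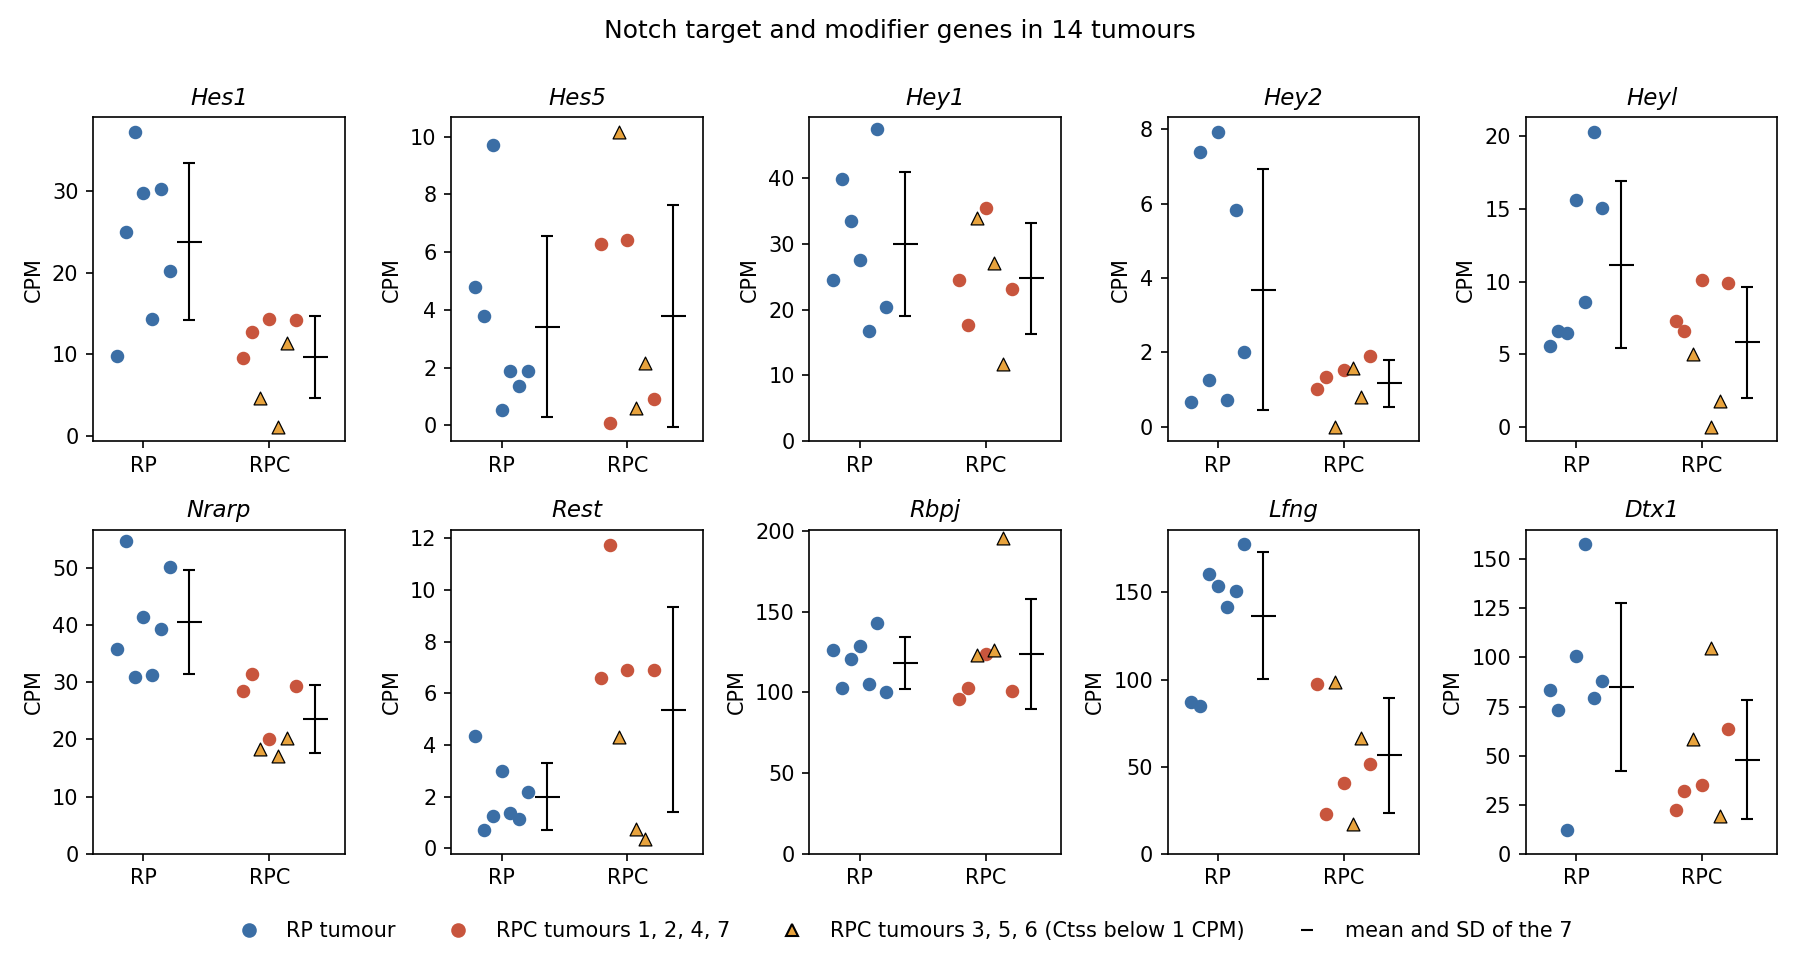
CPM of each of the 10 genes (vertical axes, linear) in the 7 RP tumours (blue) and the 7 RPC tumours (red circles, with tumours 3, 5 and 6 as orange triangles); the bars give the mean and SD of each 7. No gene separates the genotypes fully; for Nrarp 6 of the 7 RPC tumours lie under every RP tumour, and for Rest the 4 red circles lie above every RP tumour.

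Among the HES and HEY repressors Hes1, on chromosome 16, had the smallest p. In the RP tumours it ran from 9.84 CPM (tumour 1) through a median of 25.0 to 37.3 CPM (tumour 3), and in the RPC tumours from 1.14 (tumour 5) through a median of 11.4 to 14.3 CPM (tumour 4). All 7 RPC tumours were under the RP median, and 3 of them were under every RP tumour, so the groups overlapped through the lowest RP values. Means were 23.8 ± 9.64 and 9.69 ± 5.04 CPM (SD, n = 7 each), a log2 fold change of -1.30 with a standard error (SE) of 0.45 and an adjusted p of 0.125 in edgeR. RPC tumours 3, 5 and 6 stood at 4.61, 1.14 and 11.4 CPM. The log2 fold change was -0.91 without these 3, and the other 4 RPC tumours lay between 9.58 and 14.3 CPM. DESeq2 gave an adjusted p of 0.0445, and in edgeR the adjusted p ran from 0.104 to 0.214 as each library was left out.

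Hey2, on chromosome 10, was low in all tumours and split the RP group. RP tumours 2, 4 and 6 had 7.38, 7.93 and 5.84 CPM, and the other 4 RP tumours 0.651 to 2.02 CPM. The RPC tumours lay between 0 and 1.90 CPM with a median of 1.33, inside the range of the low RP tumours or under it. Tumour 3 had no Hey2 read, where 3 counts would have been 0.314 CPM. The log2 fold change was -1.66 (SE 0.72, edgeR adjusted p = 0.205), and -1.36 without RPC tumours 3, 5 and 6; the 3 high RP tumours set the RP mean of 3.69 ± 3.24 CPM (SD, n = 7).

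Heyl, on chromosome 4, had 5.57 to 20.3 CPM in RP with a median of 8.58, and 0.0543 to 10.1 CPM in RPC with a median of 6.62. The log2 fold change was -0.94 (SE 0.65, adjusted p = 0.421). RPC tumour 5, with a single read, and tumour 6, at 1.79 CPM, were the lowest of all 14, and tumour 3 followed at 5.03 CPM. The other 4 RPC tumours, at 6.62 to 10.1 CPM, lay inside the RP range, and without the 3 the log2 fold change was -0.40.

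Hey1, on chromosome 3, overlapped between genotypes over most of its range. RP tumours held 16.8 to 47.5 CPM (median 27.5) and RPC tumours 11.7 to 35.4 CPM (median 24.5), a log2 fold change of -0.28 with SE 0.28 and an adjusted p of 0.583. RPC tumours 3, 5 and 6 stood at 33.9, 27.1 and 11.7 CPM, so the first pair kept a level near or above the RP median while Heyl and Hes1 were low there. Without tumours 3, 5 and 6 the log2 fold change of Hey1 was -0.25. Hes5, on chromosome 4 and best known from neural progenitors, varied by tumour with no order by genotype. Its RP values lay between 0.513 and 9.71 CPM (median 1.89), its RPC values ran from 0.0883 to 10.2 CPM (median 2.15), a log2 fold change of 0.16 with SE 0.81. That direction was negative in some alternative fits, such as -0.18 with limma-voom. Without RPC tumours 3, 5 and 6 the log2 fold change of Hes5 was 0.02 (SE 0.91).

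The blood-vessel markers moved with part of this picture. Of the endothelial markers (Pecam1, Cdh5, Kdr, Tek, Emcn, Cldn5, Egfl7, Esam) 6 of 8 were under every other library in all of RPC tumours 3, 5 and 6, with Cdh5, Emcn and Cldn5 at 0. Their summed level was 112 to 299 CPM in RP, 61.5 to 369 CPM in RPC tumours 1, 2, 4 and 7, and 18.6, 92.5 and 8.85 CPM in tumours 3, 5 and 6, where Kdr alone gave 82.9 CPM in tumour 5. Of the mural markers (Rgs5, Pdgfrb, Cspg4, Acta2, Des, Kcnj8, Abcc9) 6 of 7 were under every other library in all 3, their sum being 78.3 to 218 CPM in RP, 61.2 to 160 CPM in the other 4 and 4.93, 3.20 and 8.31 CPM in the 3. In bulk tumour RNA, fewer cells of a type and less RNA per cell cannot be told apart. The part of these cells in the Hes1, Hey2 and Heyl values was not tested. Macrophage and fibroblast markers were low in the same 3 tumours, so the marker covariate used next does not single out vessel cells. With the mean of these endothelial and mural markers as a covariate edgeR gave a log2 fold change of -0.92 for Hes1 (SE 0.51, adjusted p = 0.546), -1.36 for Hey2 (SE 0.87, adjusted p = 0.610) and -0.28 for Heyl (SE 0.69, adjusted p = 0.931), where the fit without it had given Heyl -0.94. In RPC tumours 3, 5 and 6, where Cdh5, Emcn and Cldn5 were at 0, Hey1 was at 33.9, 27.1 and 11.7 CPM, the last under every RP tumour, and Nrarp at 18.3, 17.1 and 20.3 CPM, all under every RP tumour.

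**Figure D2:**
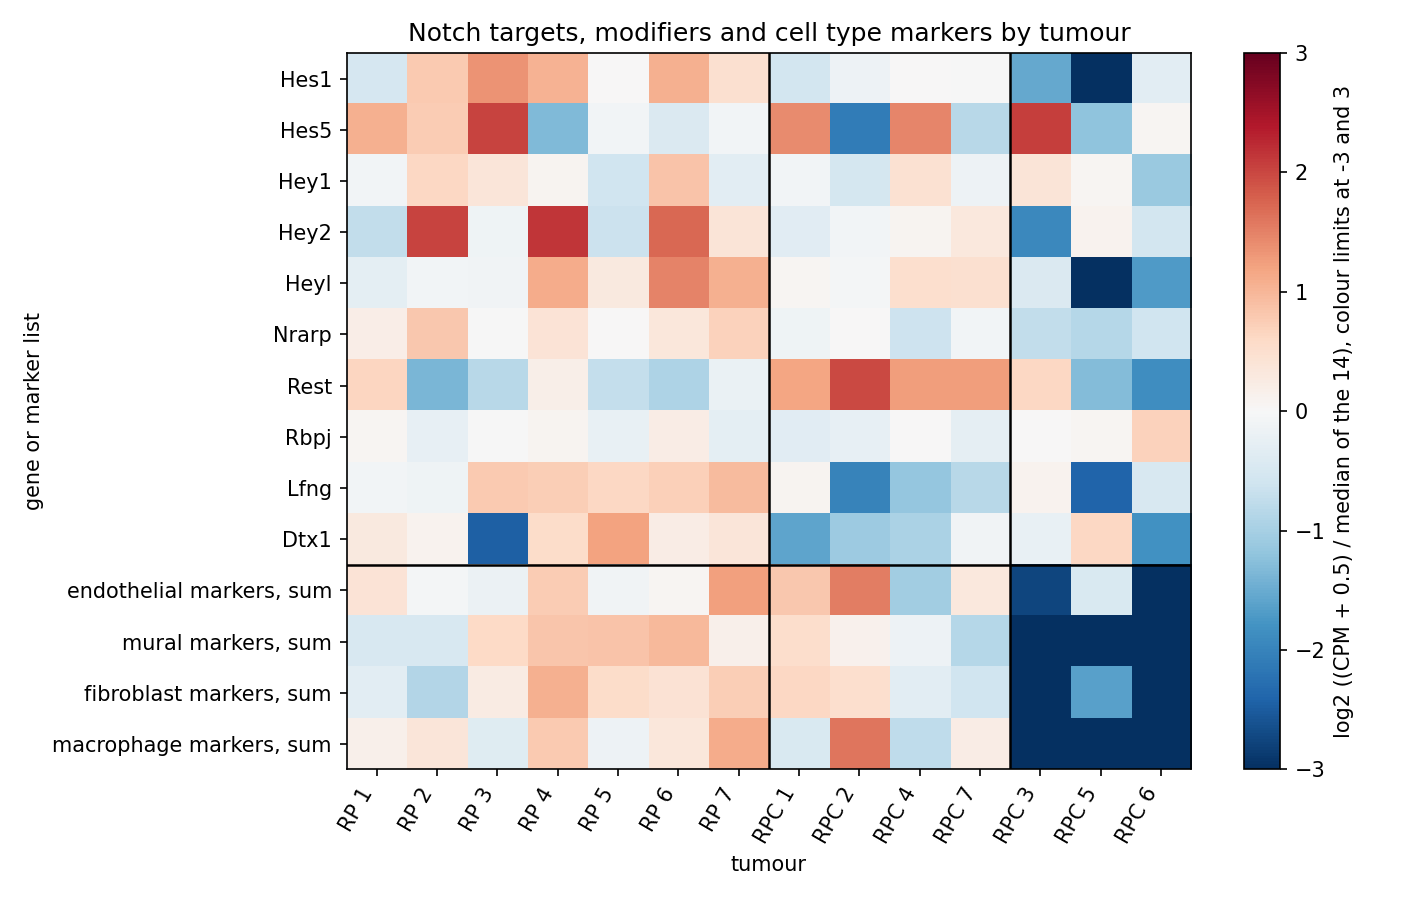
Each row is a gene, or the summed CPM of a marker list, and each column a tumour; colour gives log2 of CPM plus 0.5 over the median of the 14, cut at -3 and 3, and lines separate RP tumours, RPC tumours 1, 2, 4 and 7, and RPC tumours 3, 5 and 6. The macrophage row includes Ctss, which set the last 3 columns apart. The mural and macrophage rows are darkest blue in all of these 3, and the fibroblast row in tumours 3 and 6. In tumour 5 Hes1 and Heyl are low and Hey1 and Rbpj are not.

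Among the genes that modify Notch signalling, Nrarp and Lfng came nearest to the threshold of all 10. Nrarp, on chromosome 2, is induced by Notch and binds the freed receptor to limit it. RP tumours held 30.9 to 54.8 CPM (median 39.3), and RPC tumours 17.1 to 31.5 CPM (median 20.3). Only RPC tumour 2, at 31.5 CPM, entered the RP range, and the other 6 lay under every RP tumour. Means were 40.5 ± 9.10 and 23.6 ± 5.95 CPM (SD, n = 7 each), a log2 fold change of -0.78 with SE 0.19 and an edgeR adjusted p of 0.0501. This gene passed without RP tumour 3 (adjusted p = 0.0317), without RPC tumour 2 (0.0486) or without RPC tumour 7 (0.0344), and did not when any of the other 11 libraries was left out (0.0553 to 0.0971). RPC tumours 3, 5 and 6 were low, at 18.3, 17.1 and 20.3 CPM, as was tumour 4 at 20.2 CPM, and without the 3 the log2 fold change was -0.56 (adjusted p = 0.311).

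Lfng, on chromosome 5, adds N-acetylglucosamine to fucose on the Notch receptors and changes which ligands they answer. It was the most abundant of the 10 per length. RP tumours ran from 85.0 to 178 CPM (median 151), with tumours 1 and 2 at 87.3 and 85.0 CPM and the other 5 at 142 CPM or more. RPC tumours ran from 17.0 (tumour 5) to 98.8 CPM (tumour 3) with a median of 51.7, and 5 of 7 lay under every RP tumour. The log2 fold change was -1.28 with SE 0.36 and an edgeR adjusted p of 0.0712, and 0.0557 to 0.124 as each library was left out. It was -1.35 (adjusted p = 0.172) without RPC tumours 3, 5 and 6 and -1.32 with the vessel markers as a covariate (adjusted p = 0.319), so its size did not shrink with either. DESeq2 and limma-voom gave adjusted p-values of 0.00919 and 0.0379.

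Dtx1, on chromosome 5, a ubiquitin ligase of the Deltex family that acts on Notch receptors, was wide in each group. RP tumours ran from 12.2 (tumour 3) to 158 CPM (tumour 5) with a median of 83.3, and RPC tumours from 19.1 (tumour 6) to 105 CPM (tumour 5) with a median of 35.1. The groups overlapped over most of their range, and the log2 fold change was -0.83 with SE 0.46 and an edgeR adjusted p of 0.311. RPC tumours 3 and 5, at 58.3 and 105 CPM, were among the higher RPC values, and without tumours 3, 5 and 6 the log2 fold change was -1.15.

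**Figure D3:**
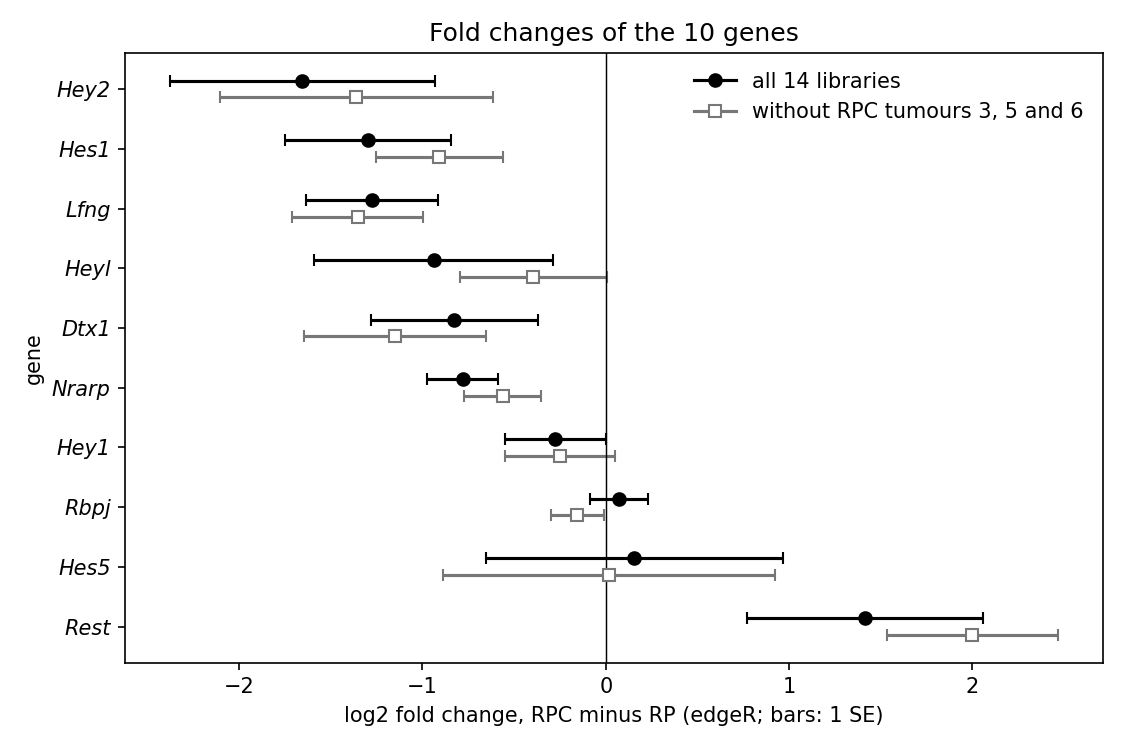
Log2 fold change, RPC minus RP, of each of the 10 genes from edgeR (horizontal axis; bars are 1 SE), over all 14 libraries (filled circles) and without RPC tumours 3, 5 and 6 (open squares). Lfng, Dtx1 and Rest lie farther from 0 without the 3 tumours, Hes1, Hey2, Heyl and Nrarp lie nearer to it, and Rbpj changes sign.

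Rbpj, on chromosome 5, which encodes the DNA-binding core of the pathway, was even across tumours. RP tumours lay between 100 and 143 CPM (median 120), and RPC tumours between 95.8 and 195 CPM (median 123), a log2 fold change of 0.07 with SE 0.16. RPC tumour 6 held the 195 CPM and the other 6 RPC tumours lay at 126 CPM or less. Without RPC tumour 6 the log2 fold change was -0.073, and without tumours 3, 5 and 6 it was -0.16.

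Rest, on chromosome 5, was scarce and went the other way, but only in part of the RPC group. RP tumours ran from 0.703 (tumour 2) to 4.34 CPM (tumour 1) with a median of 1.38. RPC tumours 1, 2, 4 and 7 had 6.59, 11.8, 6.91 and 6.89 CPM, each above every RP tumour, while tumours 3, 5 and 6 had 4.30, 0.760 and 0.358 CPM, inside or under the RP range. Over all 7 the log2 fold change was 1.42 with SE 0.64 (edgeR adjusted p = 0.221), and over the 4 it was 2.0 with SE 0.47 (adjusted p = 0.144). REST is known to be expressed in most non-neuronal cells. The summed macrophage markers other than Ctss, which had set the 3 apart (Cd68, Csf1r, Emr1, Lyz2, C1qa, C1qb), were 307 to 1654 CPM in the 4 RPC tumours, 407 to 1135 CPM in RP and 3.04 to 6.57 CPM in the 3, where 6 of 6 were under every other library and Emr1 was at 0. The fibroblast markers (Col1a1, Col1a2, Col3a1, Pdgfra, Dcn, Lum) summed to 256 to 603 CPM in the 4, 213 to 820 CPM in RP and 3.46, 126 and 5.54 CPM in the 3, with Pdgfra giving 117 CPM of the 126. These marker sums overlapped between the 4 RPC tumours and RP. The part of other cells in the Rest values was not tested.

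Other cell types a lung sample could hold varied more from tumour to tumour. Alveolar type 2 markers (Sftpc, Sftpb, Sftpa1, Abca3, Lamp3) summed to 161 to 1543 CPM in RP, 111 to 2702 CPM in the 4 and 51.8 to 141 CPM in the 3. Club cell markers (Scgb1a1, Scgb3a2, Cyp2f2) gave 22.3 to 2412 CPM in RP, 21.2 to 2185 CPM in the 4 and 1.14 to 21.1 CPM in the 3. T and NK cell markers gave 2.07 to 45.6 CPM in RP, 2.68 to 13.8 CPM in the 4 and 0.217 to 0.536 CPM in the 3, and ciliated cell markers 11.1 to 74.2, 29.2 to 53.0 and 13.1 to 20.6 CPM.

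To compare levels between genes, CPM were divided by exonic length in kilobases, from the GENCODE vM21 annotation. In RP the order was Lfng (54.6 CPM per kb), Dtx1 (16.1), Nrarp (15.7), Hes1 (11.7), Rbpj (9.25), Hey1 (9.19), Hes5 (2.51), Heyl (2.18), Hey2 (0.802) and Rest (0.277 CPM per kb). Only Lfng and its neighbour Dtx1 had ranges over the 7 RP tumours that did not overlap, and in the other 8 of 9 neighbouring pairs they did. In RPC Lfng was again at the head with 22.6 CPM per kb, Rbpj came next at 9.71, Hes1 was sixth at 4.76, and Rest (0.743) stood above Hey2 (0.253 CPM per kb).

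Heyl lies near Mycl1 on chromosome 4, in a stretch where RPC tumours differ widely. Mycl1, a MYC family gene, is 7 genes from Heyl in the RefSeq order, and its level over the RP mean was 28.5-fold in RPC tumour 1, 6.52-fold in tumour 2, 13.9-fold in tumour 3, 21.9-fold in tumour 4, 1.52-fold in tumour 5, 30.2-fold in tumour 6 and 2.44-fold in tumour 7. Ppie, a cyclophilin-type prolyl isomerase gene 3 genes from Heyl on that side, was at 19.8, 31.1 and 12.9 times the RP mean in tumours 1, 2 and 3. Heyl itself was at 0.654, 0.594 and 0.451 times its RP mean in those tumours. In tumour 3 the next gene on the far side, Pabpc4, which encodes a poly(A)-binding protein, was at 17.4 times, and Macf1, a cytoskeletal crosslinker gene 4 genes away, at 9.83 times the RP mean. The high values in tumour 3 thus lay on both sides of Heyl, and Heyl was not among them. Bmp8b, Oxct2b, Hpcal4 and D830031N03Rik were also measured there, with folds in tumours 1, 2 and 3 of 17.7, 3.87 and 2.98 for Bmp8b, 19.4, 21.3 and 2.67 for Oxct2b, 35.6, 0.264 and 1.05 for Hpcal4 and 1.6, 1.30 and 6.13 for D830031N03Rik. Oxct2b has a near-identical copy, Oxct2a, so its count is uncertain, and Nt5c1a, Bmp8a and Oxct2a had too few counts to test. The copy number of this stretch was not measured.

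**Figure D4:**
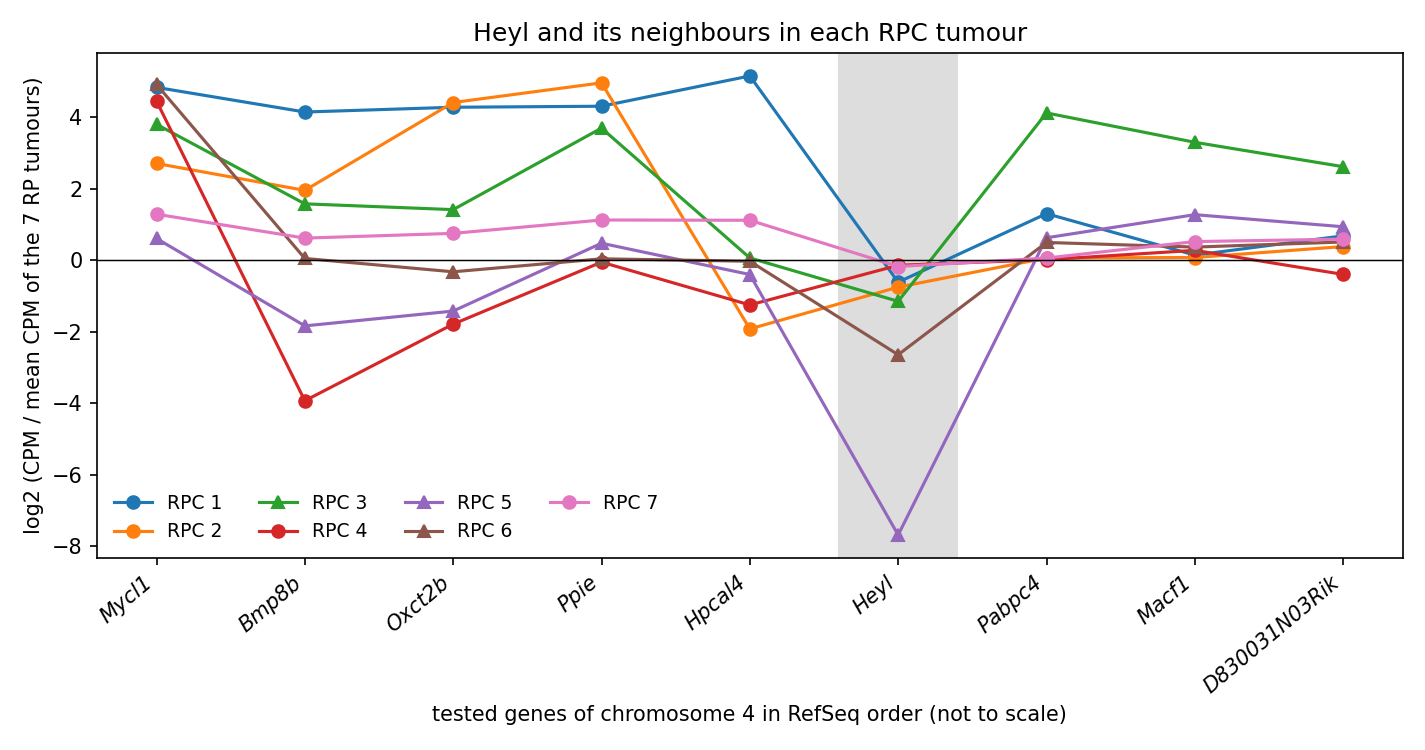
Level of Heyl (grey band) and of the tested genes around it on chromosome 4 in each RPC tumour, as log2 of CPM over the mean CPM of the 7 RP tumours (vertical axis), in RefSeq order and not to scale; triangles are tumours 3, 5 and 6. Lines for tumours 1, 2 and 3 are high at Ppie (19.8, 31.1 and 12.9 times). At Heyl the lines of all RPC tumours are under 0, with tumours 5 and 6 lowest.

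For each member the 3 tested genes with the highest Pearson r of log2 CPM over the 14 libraries were listed, with r again over the 11 without RPC tumours 3, 5 and 6. These points share genotype, depth and cell content, so the values are descriptions. The nearest gene to Dtx1 was Nfic, a nuclear factor I gene, with r of 0.96 over 14 and 0.96 over 11, followed by Kcnip3 (0.88 and 0.91) and Leng9 (0.87 and 0.90). Nrarp was followed by Emp3 (0.95 and 0.92), Tmem220 (0.94 and 0.89) and Prcp (0.93 and 0.85), and Lfng by Ptp4a3 (0.92 and 0.87), Tpcn1 (0.90 and 0.88) and Nudt14 (0.88 and 0.91). These stayed at 0.85 or more over the 11 libraries, and those of Hes1 and Heyl came to 0.62 to 0.75. Some of other members fell as well, such as Psmc4 with Rbpj and Ifi35 with Hey2. All were picked for a high r over the 14, so a lower r over the 11 can follow from that choice alone. Hes1 was nearest to Fgd2 (0.93 and 0.74), Sigirr (0.92 and 0.62) and 9130017N09Rik (0.91 and 0.64), and Heyl to Psd4 (0.96 and 0.71), 1810019D21Rik (0.94 and 0.62) and Gm5480 (0.94 and 0.75). Hey2 was nearest to Creb3l1 (0.89 and 0.80), Fbxl21 (0.89 and 0.90) and Ifi35 (0.88 and 0.74), Hey1 to Ccndbp1 (0.84 and 0.77), Zfp944 (0.84 and 0.85) and Mapk12 (0.82 and 0.80), and Hes5 to BC068157 (0.90 and 0.94), Mbip (0.85 and 0.88) and Hoxb8 (0.85 and 0.85). Rbpj was nearest to the cyclin gene Ccne1 (0.85 and 0.84), then Tbc1d14 (0.80 and 0.70) and Psmc4 (0.78 and 0.49), and Rest to the predicted genes Gm5458 (0.88 and 0.81), Gm5796 (0.88 and 0.80) and Gm10406 (0.86 and 0.78). Among the 10 genes themselves, 29 of 45 pairs had a positive r over the 11 libraries, with a median of 0.22. Hes1 and Hey2 were the closest pair (0.68 over 11 and 0.52 over 14). Rest had r of -0.74 with Lfng and -0.71 with Hes1 over the 11, of which the 4 of RPC had the high Rest values, and -0.21 and -0.0055 over the 14.

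The rest of the pathway was read from 10 lists of 101 genes, of which 94 were tested. edgeR called 2 of them higher and 2 lower in RPC, beside 1.09% and 1.12% of all genes, and the median log2 fold change over the 94 was -0.06. Without RPC tumours 3, 5 and 6 edgeR called 0 of them, with 18 at an unadjusted p under 0.05 (11.9% of all genes). With the vessel markers as a covariate it called 0 (0.054% of all genes), with 19 at an unadjusted p under 0.05 (10.7% of all genes). Over all 14 libraries edgeR had 26 of the 94 at an unadjusted p under 0.05 (21.3% of all genes). DESeq2 called 16 (9.62% of all genes) and limma-voom 3 (3.40% of all genes).

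Of the receptors and ligands, which send and receive the signal, 1 of 12 was called. Dll1, a Delta ligand, fell from 74.9 ± 28.6 to 30.3 ± 13.4 CPM (SD, n = 7 each). In edgeR this was -1.31 on the log2 scale, with SE 0.32 and an adjusted p of 0.0498. RPC tumours 3, 5 and 6 had its lowest values, 17.4, 18.7 and 19.8 CPM, and without them the adjusted p was 0.297. The call was kept when RP tumour 3, RP tumour 7 or RPC tumour 7 was left out and lost when any of the other 11 libraries was (0.0560 to 0.101).

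None of the proteases that release the receptor (9 tested), its glycosylation, ubiquitin ligase and trafficking genes (16), the RBPJ coactivators (7) or the RBPJ corepressors (9) was called by edgeR or limma-voom. At an unadjusted p under 0.05 these lists had 1, 3, 0 and 1 genes, beside 21.3% of all genes. DESeq2, which called 9.62% of all genes, called 1, 1, 0 and 1, Adam10 and Poglut1 among them. Adam10, the protease of the first cut, had 187 ± 36.9 CPM in RP and 132 ± 21.6 CPM in RPC (SD, n = 7 each; log2 fold change -0.50, edgeR adjusted p = 0.0775). Poglut1, which adds glucose to the receptor, had log2 fold change 0.70 (adjusted p = 0.102), and Dtx3l, a relative of Dtx1, -0.87 (adjusted p = 0.162). Without RPC tumours 3, 5 and 6 the log2 fold changes of Poglut1 and Dtx3l were 0.45 and -0.52. Mastermind genes Maml2 and Maml3 had -0.68 and -0.61 (adjusted p = 0.336 and 0.270 in edgeR). The RBPJ relative Rbpjl had log2 fold change -2.35 (SE 1.21, adjusted p = 0.276).

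The other HES-related genes and the Groucho corepressors that HES proteins recruit had 1 of 8 called. Bhlhe41, a repressor of the HES-related family known from the circadian clock, fell from a mean of 85.3 ± 10.9 in RP to 40.6 ± 11.5 CPM in RPC (SD, n = 7 each), and all 7 RPC tumours were under every RP tumour. Its log2 fold change was -1.07 with SE 0.17 and an edgeR adjusted p of 0.00899, called in all 14 fits that left out a library. Without RPC tumours 3, 5 and 6 the log2 fold change was -1.08, with an adjusted p of 0.0910 over 11 libraries. This list had 6 of 8 genes with a negative log2 fold change and a median of -0.93, the lowest of the 10 lists. Of the proneural factors edgeR called 0 of 4, with 1 at an unadjusted p under 0.05 (21.3% of all genes). DESeq2 and limma-voom called 1 each (9.62% and 3.40% of all genes). Neurog3, a proneural gene, had log2 fold change 0.999 (SE 0.94, adjusted p = 0.557).

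Of the other Notch-responsive genes 1 of 7 was called. Sox9, a transcription factor of progenitor cells, rose from 0.601 ± 0.377 to 14.95 ± 25.5 CPM (SD, n = 7 each), with 72.0 CPM in RPC tumour 5, 13.7 CPM in tumour 3 and 6.97 CPM in tumour 6. In edgeR its log2 fold change was 4.60 with SE 0.93 (adjusted p = 0.0255), 3.14 (adjusted p = 0.0312) without RPC tumour 5 and 2.27 (adjusted p = 0.161) without the 3. The call was lost without RP tumour 2, RP tumour 5, RP tumour 6 or RPC tumour 3 (0.0513 to 0.0575).

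Around Rest, none of 8 REST corepressors was called by edgeR, DESeq2 or limma-voom. In edgeR 2 of the 8 had an unadjusted p under 0.05 (21.3% of all genes). Hdac2 had 188 ± 76.4 CPM in RP and 285 ± 75.7 CPM in RPC (SD, n = 7 each; log2 fold change 0.60, adjusted p = 0.156), and Rcor2, a CoREST subunit, log2 fold change 0.90 (adjusted p = 0.213). Without RPC tumours 3, 5 and 6 the log2 fold changes of Hdac2 and Rcor2 were 0.28 and 0.67. Of the neuronal genes that REST is known to repress, 1 of 14 was called, 7 had a negative and 7 a positive log2 fold change, and their median was 0.03. The called gene was Calb1, a calcium-binding protein of neurons, which rose, with 0.632 to 3.71 CPM in RP and 4.89 to 1167 CPM in RPC, all 7 above every RP tumour. The 1167 CPM were in RPC tumour 5, where Rest was at 0.760 CPM. In RPC tumour 6, with the lowest Rest at 0.358 CPM, Calb1 was at 13.05 CPM. RPC tumours 1, 2, 4 and 7, each with Rest above every RP tumour, had 4.89 to 11.3 CPM of Calb1. A relation of Calb1 to Rest was not tested. edgeR gave Calb1 a log2 fold change of 6.54 with SE 1.47 (adjusted p = 0.0375), 2.59 without RPC tumour 5 (adjusted p = 0.0292) and 2.16 without the 3 (adjusted p = 0.144). Its call was lost when RP tumour 1, 2, 4, 5, 6 or 7 or RPC tumour 3 was left out (0.0536 to 0.0884).

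**Figure D5:**
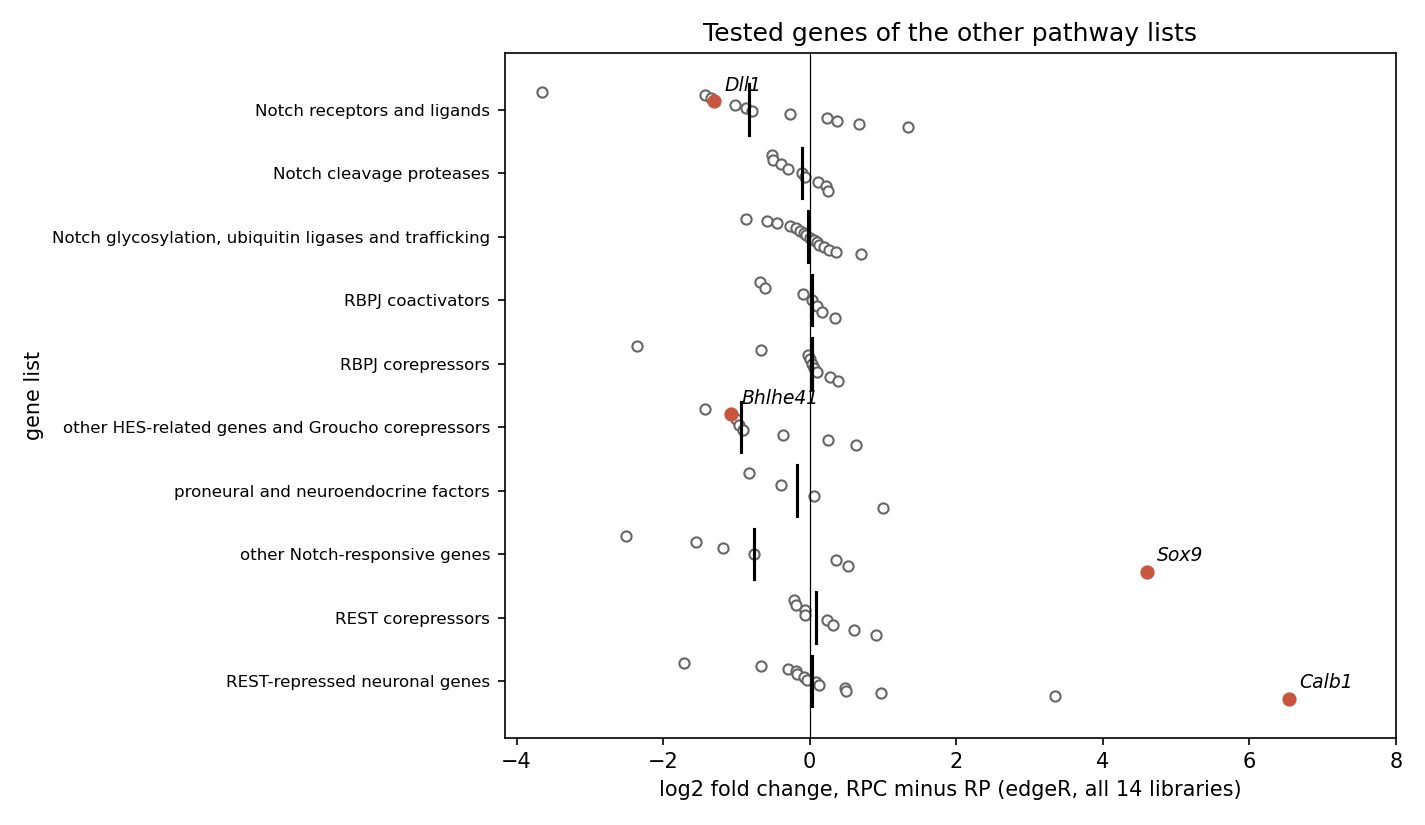
Log2 fold change, RPC minus RP, from edgeR over all 14 libraries (horizontal axis) of each tested gene of the 10 pathway lists (rows; the vertical offset within a row only separates points); filled points are called at an adjusted p under 0.05 and black bars mark list medians. The 4 called genes are Dll1, Bhlhe41, Sox9 and Calb1, and the lowest medians are those of the HES-related genes (-0.93) and of the receptors and ligands (-0.83).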

How the data were processed

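RNA of 14 primary mouse tumours was measured by sequencing of polyadenylated RNA, selected and made into libraries with a NEBNext Ultra kit, per the labels' protocols. The authors deposited raw read counts per gene symbol. bcl2fastq 1.8.2, TopHat2 2.0.12 and HTSeq 0.6.1 with the mm9 genome are named, per the submitters' processing notes; no setting, annotation or use of strand is given in the sources used here, so a gene's count may include its antisense partner's reads, and near-identical copies are uncertain. Rows that name no gene were left out (reads outside genes 15.1% to 20.5%, not unique 8.44% to 11.2%, ambiguous 0.883% to 1.09%). The remaining counts came to 10060969 to 24052799 per library, and no 2 libraries of a genotype were alike within sampling noise (chi-square per degree of freedom at least 59.2 over 42 pairs).

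Groups follow the genotype in the labels. In R 4.3.3, edgeR 4.0.16 (filterByExpr with minimum count 10 and minimum total 15, TMM, quasi-likelihood test, Benjamini-Hochberg adjustment over all 14804 tested genes, called at 0.05) compared RPC with RP over all 14 libraries with no covariate. It was tested on simulated counts. CPM use TMM-scaled library sizes, and log2 CPM for correlations a prior count of 2. Alternatives were DESeq2 size factors, upper-quartile scaling, no filter, at least 1 CPM in 7 libraries, DESeq2 1.42.0, limma-voom (limma 3.58.1), robust empirical Bayes, a replicate block, a marker covariate and leaving out libraries. The members, lists, markers and alternatives were chosen with earlier results of these data known.

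Named are all 10 members, every called gene of a pathway list and otherwise its 2 genes with the smallest p, 3 genes most like each member, and the 5 nearest genes on each side of Heyl with Mycl1; a few are left out of this account. Promoter windows and gene order come from RefSeq tables of GRCm38.p6 and exonic lengths from GENCODE vM21. Since reads were counted on mm9, only promoter windows carry coordinates.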

Additional observations from a re-analysis of the deposited data

Results flagged for a closer look

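For 34 genes, each genotype's 7 values were checked for a highest or lowest value whose gap to the nearest other, over the group's whole range, passed Dixon's critical value for 7 values. Of 68 groups, 12 did. The test's rate of about 1 in 20 holds for independent normal values. These were untransformed CPM, some genes were named for a small p and others lie side by side. The 12 can therefore not be set against that rate. Among the 10 Notch genes the only one was Rbpj in RPC tumour 6, at 195.3 CPM with the next tumour at 125.9 CPM. Among the pathway genes, RPC tumour 5 stood out for Calb1 (1167 CPM) and Sox9 (72.04 CPM), RPC tumour 3 for Poglut1 (148.6 CPM) and RP tumour 3 for Hdac2 (355.8 CPM). The other 7 lie around Heyl on chromosome 4. In RPC tumour 3 these were Pabpc4 (865.1 CPM), Macf1 (2801 CPM) and D830031N03Rik (108.9 CPM), and in RPC tumour 1 Bmp8b (363.3 CPM) and Hpcal4 (35.67 CPM). In RP they were Hpcal4 in tumour 1 (4.124 CPM) and Pabpc4 in tumour 3 (119.6 CPM).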

How the results depend on the processing

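The number of genes called over the whole table, 327, was 1424 with DESeq2, 503 with limma-voom, 74 with the replicate block, 8 with the endothelial and mural marker covariate, 11 without RPC tumours 3, 5 and 6, and 51 to 898 as each library was left out. Of the 10 Notch genes, 0 in the reported fit, 3 were called with DESeq2, 2 with limma-voom, 1 with the filter of at least 1 CPM in 7 libraries, 1 with robust empirical Bayes (Nrarp in each of these) and 0 to 1 as each library was left out. Of the pathway genes, 4 in the reported fit, 16 were called with DESeq2, 1 with the replicate block (Bhlhe41), 0 with the marker covariate, 0 without RPC tumours 3, 5 and 6, and 1 to 10 as each library was left out. The cause was not tested, beyond the fewer samples where libraries were left out. Of 240 alternative values for single Notch genes, 219 kept direction and side of the threshold, 10 passed it and 11 changed sign, all in Hes5 and Rbpj. Hes5 was -0.18 with limma-voom, -0.28 with the replicate block, -0.12 with the marker covariate and between -0.31 and 0.69 as each library was left out. Rbpj was -0.18 with the marker covariate, -0.16 without RPC tumours 3, 5 and 6 and between -0.073 (without RPC tumour 6) and 0.13 as each library was left out. The sources used here do not say whether equal tumour numbers pair the genotypes, and the check made here cannot settle it. Same-numbered tumours had r of -0.05 to 0.28 in their deviations from the group means, over 0.1 in 3 of 7 pairs. Of the RP libraries, 3 of 7 were closest to their own number. With counts as low as 1 read for Heyl in RPC tumour 5 and for Hes5 in RPC tumour 2, and 0 for Hey2 in RPC tumour 3, differences at those levels were not detectable at this depth.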

Other observations

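Some pathway genes outside the rule for named genes were looked at after their values were seen. The Groucho corepressors Tle1, Tle2 and Tle6, partners of HES proteins, had log2 fold changes of -0.90, -1.01 and -0.97 (edgeR adjusted p = 0.0982, 0.122 and 0.121), and DESeq2 called all of them lower in RPC. Tle3 and Tle4, of the same list, had positive log2 fold changes of 0.25 and 0.63 (edgeR adjusted p = 0.630 and 0.527). Tle1 had 138 ± 61.1 CPM in RP and 73.8 ± 27.0 CPM in RPC (SD, n = 7 each), and 5 of 7 RPC tumours lay under every RP tumour. Bhlhe40, the close relative of Bhlhe41, had 99.6 ± 54.3 and 36.9 ± 20.7 CPM (SD, n = 7 each), a log2 fold change of -1.43 (edgeR adjusted p = 0.103). The ligand gene Jag2 had 299 ± 77.2 CPM in RP and 147 ± 64.7 CPM in RPC (SD, n = 7 each), with 6 of 7 RPC tumours under every RP tumour and an edgeR adjusted p of 0.0554. Stmn2, a neuronal gene that REST represses, had 6.70 ± 9.07 and 67.6 ± 75.8 CPM (SD, n = 7 each; edgeR adjusted p = 0.0869), with 58.8, 220.4 and 109 CPM in RPC tumours 3, 5 and 6. Vgf, of the same list as Stmn2, went the other way, with 65.8 ± 63.6 and 20.1 ± 13.3 CPM (SD, n = 7 each). Its log2 fold change was -1.71 (edgeR adjusted p = 0.145). Without RPC tumours 3, 5 and 6 the log2 fold changes were -0.67 for Tle1, -1.65 for Bhlhe40 and -0.90 for Jag2. They were 1.66 for Stmn2 and -2.07 for Vgf, and none of these genes passed.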
